A study of Mus musculus with 6 samples.

Results

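The regions described here are 1048 short stretches of open chromatin that stood high in the peak list of regulatory T cells (Treg cells) without Bcl11b and had no counterpart nearby in the list of cells with it. They were taken from the 36182 peaks of the KO list by 4 conditions. A region had to lie in the first 50% of the rows of that list, and no WT peak could lie within 500 bp of it. Its midpoint had to be more than 1 kb from both ends of every protein-coding gene, and inside such a gene or at most 100 kb from one. The regions were thus chosen by measured values, the row order of the KO list and the absence of a WT peak, and the counts of KO-only peaks below describe that choice. High-ranked distal KO-only peaks are called KO-only regions from here on.

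The assay was ATAC-seq, in which a transposase cuts and tags accessible DNA, on 100000 sorted CD4+YFP+ cells per sample from spleen and draining lymph nodes of C57BL/6 mice. The WT group (3 samples) carried Bcl11b w/w with Foxp3-IRES-YFP-Cre, and the KO group (3 samples) Bcl11b f/f with the same Foxp3-IRES-YFP-Cre allele. The reporter and the Cre recombinase are therefore shared by both groups and follow Foxp3, the gene of the Treg lineage factor, so deletion takes place in cells that have turned Foxp3 on. The labels do not give the age of the animals, the part of Bcl11b that is deleted, or whether animals were pooled. Each group is represented by 1 peak list for its 3 samples, with no height and no read count per peak, so the sequencing depth cannot be given. Replicates could not be compared, no test was made, and every difference below is one between 2 pooled lists. A site called in the KO list alone was not shown to be closed in WT cells.

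Distal accessible sites are mostly enhancers and other regulatory elements, bound by transcription factors that act on genes some distance away. In T cells such sites are held open by factors of the Runx, Ets, AP-1 and Tcf families, and which of them are open differs between naive, effector and regulatory cells. Bcl11b is a zinc-finger factor that commits thymocytes to the T cell lineage and represses genes of innate lymphoid and NK cells. A region is assigned here to the protein-coding gene it lies in, by its midpoint, or else to the nearest such gene, which leaves unknown the gene it acts on.

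The choice ran as follows. Of 18091 KO peaks in the first 50% of the rows, 1283 (7.09%) had no WT peak within 500 bp, against 6639 of all 36182 KO peaks (18.3%). Lying within 1 kb of a gene end removed 173 of these 1283, and lying beyond 100 kb from any gene removed 62 more. Among the 8973 distal KO peaks of the first 50%, 1048 (11.7%) were thus KO-only, 7452 were overlapped by a WT peak by at least 1 bp and are called shared, and 473 had a WT peak within 500 bp without overlap. With the lists exchanged, the same conditions gave 994 of 19129 WT peaks (5.2%) and, among 9690 distal ones, 784 WT-only regions (8.09%). The ratio of KO-only to WT-only regions was 1.34 and depended on the row limit. With the first 25% of the rows of each list it was 2.68, and with the first 75% it was 0.866, the other way round. All KO-only regions had the same width, the usual one of the KO list, and together they covered 202264 bp.

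For most regions no sequence could be read, since only windows around annotated starts were at hand. The windows run from 250 bases before to 50 bases after a start in RefSeq (build mm10), and 20 of the 1005 KO-only regions on chromosomes with such windows overlapped one. These starts lie inside genes or belong to noncoding genes, since both ends of every protein-coding gene were excluded. The 250 bases before the start are given for 5 of them, chosen after their values were seen because the peak is early in the list or its gene is a T cell gene. Capitals mark TGTGGT, the core of the Runx motif, and CAGGAAG, an Ets motif, on either strand, and bases are counted from 1 at the 5′ end.
Ubxn6, chr17:56075027-56075276, minus strand: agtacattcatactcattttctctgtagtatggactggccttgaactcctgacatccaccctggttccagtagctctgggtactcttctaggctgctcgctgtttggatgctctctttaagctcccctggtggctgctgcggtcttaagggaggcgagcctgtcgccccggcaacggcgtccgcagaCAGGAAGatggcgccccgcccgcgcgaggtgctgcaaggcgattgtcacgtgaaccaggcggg
Shisa5, chr9:109054616-109054865, plus strand: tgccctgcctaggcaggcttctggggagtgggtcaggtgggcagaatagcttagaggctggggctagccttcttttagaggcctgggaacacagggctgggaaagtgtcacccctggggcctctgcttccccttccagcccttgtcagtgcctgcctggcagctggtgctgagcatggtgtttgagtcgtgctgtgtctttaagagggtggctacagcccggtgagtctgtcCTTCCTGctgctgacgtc
Gm32999 in Cd247, chr1:165849127-165849376, minus strand: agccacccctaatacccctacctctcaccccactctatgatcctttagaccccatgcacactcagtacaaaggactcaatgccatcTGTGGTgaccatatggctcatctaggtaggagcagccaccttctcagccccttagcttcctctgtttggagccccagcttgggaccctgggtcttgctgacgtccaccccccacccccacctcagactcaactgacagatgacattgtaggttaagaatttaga
Ikzf1, chr11:11689927-11690176, plus strand: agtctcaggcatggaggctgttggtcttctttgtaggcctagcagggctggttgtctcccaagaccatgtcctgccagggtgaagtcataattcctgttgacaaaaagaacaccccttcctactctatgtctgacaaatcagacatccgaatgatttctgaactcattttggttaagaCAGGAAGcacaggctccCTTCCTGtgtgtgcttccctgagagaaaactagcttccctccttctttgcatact
Txk, chr5:72736603-72736852, minus strand: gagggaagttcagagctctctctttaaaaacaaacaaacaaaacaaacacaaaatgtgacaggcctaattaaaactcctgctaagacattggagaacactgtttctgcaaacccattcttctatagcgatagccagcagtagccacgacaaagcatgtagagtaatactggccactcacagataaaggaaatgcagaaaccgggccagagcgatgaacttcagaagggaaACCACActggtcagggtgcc

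The KO-only region at Ubxn6, a cofactor gene of the p97 segregase, covered bases 124 to 250 of the sequence shown and with them the Ets match at bases 188 to 194. At Shisa5 the peak covered bases 168 to 250, which hold the Ets match at 233 to 239. In Cd247, the gene of the CD3 zeta chain of the T cell receptor, the peak lay at the start of the lncRNA gene Gm32999. It covered bases 183 to 250 of the sequence shown, beyond the Runx match at 87 to 92. The peak ran on to base 300 of the window, past the printed bases, and there held an Ets match at 272 to 278. At Ikzf1, which encodes Ikaros, the peak began 19 bases past an internal start, and both Ets matches (179 to 185 and 196 to 202) lay before it. At Txk, a Tec-family kinase gene of T cells, the peak began at base 237, next to the Runx match at 231 to 236. Of the 22 windows that KO-only regions overlapped, 6 held the Runx letters and 7 the Ets letters, against 16.8% and 13.3% of all 32851 windows. Among the other motifs searched, the E boxes CAGCTG and CAGGTG stood in 6 windows each, against 16.3% and 20.2%. The Tcf and Lef motif stood in 2 (16.0% of all windows), and those of T-box and NF-kB in 0 (1.28% and 1.63%). Whole windows were counted, including bases outside the peak. These matches are descriptions of letters, not binding sites, and the 22 windows hold too few to compare.

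One further sequence comes from near a KO-only region, not from inside it. Of the 1048 regions, 13 lay within 5 kb of a miRNA hairpin, and this count was not taken for shared or WT-only peaks. Some of the 13 lay nearer to a hairpin than the region given here, down to 226 bp. The region at chr11:86581378-86581570, at row 9608 and given to Vmp1, lay 2497 bp from the hairpin of miR-21a, a miRNA known for its rise in activated lymphocytes. Its mature sequence from RefSeq, with the seed in capitals, is given to show the miRNA whose hairpin lies near the region.
mmu-miR-21a-5p: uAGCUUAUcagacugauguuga

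The rows of both lists follow peak numbers within chromosomes, and their order is taken as a rank of peak strength, which the labels do not state. The KO list falls into 1313 runs (median 10 peaks, longest 329) and the WT list into 1554 (median 9, longest 301) within which chromosome and start only rise, so peaks of a run appear to be tied. KO-only regions became more frequent down the list. They made up 2.3% of distal KO peaks in the first 10% of the rows (23 of 1002, exact 95% interval 1.46 to 3.42%), 6.54% in the next 10%, then 10.1%, 14.1% and 17.5%. The WT list had 0 WT-only regions among the 920 distal peaks of its first 10%, which allows up to 0.4%, and then 2.07%, 6.26%, 8.38% and 15.1%. Below the 50% limit the order of the lists turned, with 46.5% KO-only in the last 10% of the KO list and 65.1% WT-only in that of the WT list. The median place of a KO-only region was 38.1% of the rows, against 29.4% for a shared one. All intervals are exact Clopper-Pearson intervals and cover counting error only.

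**Figure D1:**
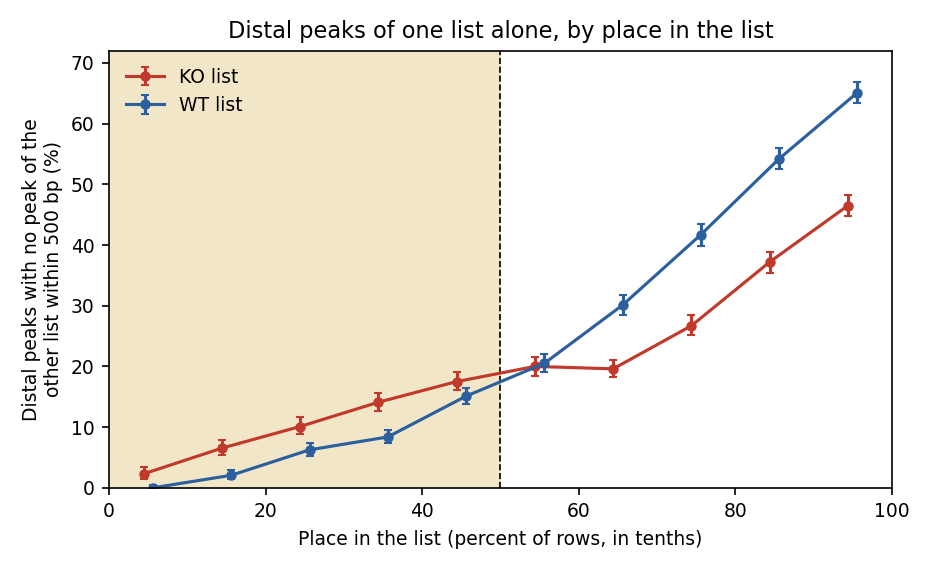
Percent of distal peaks with no peak of the other list within 500 bp (vertical axis) against the place in the list in steps of 10% of the rows (horizontal axis), for the KO list (red) and the WT list (blue), with exact 95% intervals as bars. The shaded part is the first 50% of the rows, where KO points lie above WT points, from 2.3% against 0% to 17.5% against 15.1%, whereas from 60% of the rows on the WT points lie higher.

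The last region inside the limit, at row 18091, was given to Frmd5, and the first one outside it, at row 18097, to Adnp. The limit divides a run of 80 peaks, rows 18072 to 18151, with 2 KO-only regions inside and 11 candidates outside. At the distance limit, the nearest WT peak of a region in Galm lay 502 bp away and that of an excluded peak in Ago2 500 bp away. At the gene-end limit, a region at Il10 lay 1008 bp from the gene and an excluded peak at AI467606 lay 1000 bp away. A WT peak stood between 500 and 1000 bp away for 160 regions (15.3%), and none within 20 kb for 129 (12.3%). The median gap to a WT peak was 3.1 kb.

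The 20 earliest regions are the ones that stood highest in the KO list. The first, at row 19 (chr11:3127470-3127662), was given to Sfi1 but lies inside the transcribed pseudogene Pisd-ps1. Whether reads map to it alone was not tested. The second, at row 942, lies inside Glyr1, 16.3 kb from the nearest WT peak. Immune genes among the next were Cd82, a tetraspanin of activated lymphocytes (row 1620), Rgs1, which dampens chemokine receptor signalling (row 1673), and Zc3h12a, the RNase Regnase-1 that restrains T cell activation (row 2441, 49.2 kb from the gene). Dusp10, a phosphatase of stress MAP kinases (row 2514), Litaf (row 3051), Tigit, an inhibitory receptor of Treg cells (row 3083, 37.1 kb from the gene), and Bhlhe40 (row 3161) followed. The others of the 20 were given to Plekhg3, Amz2, Zfp958, Anxa11, Dad1, Slc14a2, Ccdc12, Ubxn6, Ppm1b, Vgll4 and Arhgef10. The nearest WT peak to the region in Dusp10 lay 613 bp away. WT-only regions numbered 2 at Dusp10, 3 at Tigit, 1 each at Cd82 and Rgs1, and 0 at Zc3h12a, Litaf and Bhlhe40.

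The region at row 1772 (chr14:54225118-54225310) was given to Dad1, whose nearer end is 10.3 kb away. It lies 1016 bp beyond Trac, the constant region of the T cell receptor alpha chain, in the interval where the alpha locus has its enhancer. Trac is not annotated as protein-coding, so the gene-end condition did not apply to it. Inside Trac lay 1 KO and 1 WT peak, which were shared. The nearest WT peak to the region was 2.08 kb away.

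Against shared distal peaks, KO-only regions lay more often inside protein-coding genes and next to other peaks, and less often at annotated starts. Inside a protein-coding gene lay 689 of 1048 (65.7%, 62.8 to 68.6%), against 60.3% (59.1 to 61.4%) of shared distal peaks and 68.6% (65.2 to 71.9%) of WT-only regions. The other 359 lay between genes, a median of 13.2 kb from the nearest. An lncRNA gene held 10.3% of KO-only, 12.0% of WT-only and 13.2% of shared peaks. The genes around KO-only regions had a median length of 75.2 kb, around WT-only regions 92.2 kb and around shared peaks 74.7 kb. Where the strand was known, 36.0% of the 531 regions inside genes lay in the first 25% of the gene, close to the 36.6% of shared and 39.0% of WT-only peaks. Between genes, 60.1% of 281 lay on the start side of the gene, against 53.6% of shared and 60.2% of WT-only peaks.

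An annotated start, mostly one inside a gene or of a noncoding gene, lay within 1 kb of 65 of 1005 KO-only regions (6.47%, 5.03 to 8.17%). The share was 8.83% (6.91 to 11.1%) for WT-only regions and 18.0% (17.2 to 18.9%) for shared peaks. A start window was overlapped by 1.99% (1.22 to 3.06%), 4.74% (3.34 to 6.51%) and 12.8% of them in the same order. Shared peaks stand earlier in the lists, so the shares were also taken in rows 25 to 50% alone. There a start within 1 kb was found for 6.55% of KO-only, 7.88% of WT-only and 13.4% of shared peaks, and the shares inside genes were 65.6%, 68.0% and 58.4%. In these rows the intervals of KO-only and shared peaks did not overlap in either measure, while those of KO-only and WT-only regions did. For start windows the intervals of KO-only and WT-only regions were apart over all rows used but overlapped in rows 25 to 50% (1.85%, 1.04 to 3.04%, against 3.94%, 2.61 to 5.68%).

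KO-only and WT-only regions both lay, by median, nearer to a shared peak than shared peaks did to each other. A shared peak lay within 10 kb of 751 KO-only regions (71.7%, 68.8 to 74.4%), of 73.1% of WT-only regions (69.8 to 76.2%) and of 55.9% of shared peaks (54.8 to 57.1%, not counting the peak itself). The median distance to the nearest shared peak was 4.52 kb, 4.17 kb and 8.56 kb. In rows 25 to 50% the 3 shares were 71.1%, 71.8% and 56.4%. A WT-only peak from any row lay within 10 kb of 24.4% of KO-only regions, and a KO-only peak within 10 kb of 25.3% of WT-only regions. For shared peaks, the share with a WT-only peak that near was 18.9%. Most KO-only regions thus stood near sites called in both lists, and 256 of 1048 had a site called in WT alone within 10 kb.

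**Figure D2:**
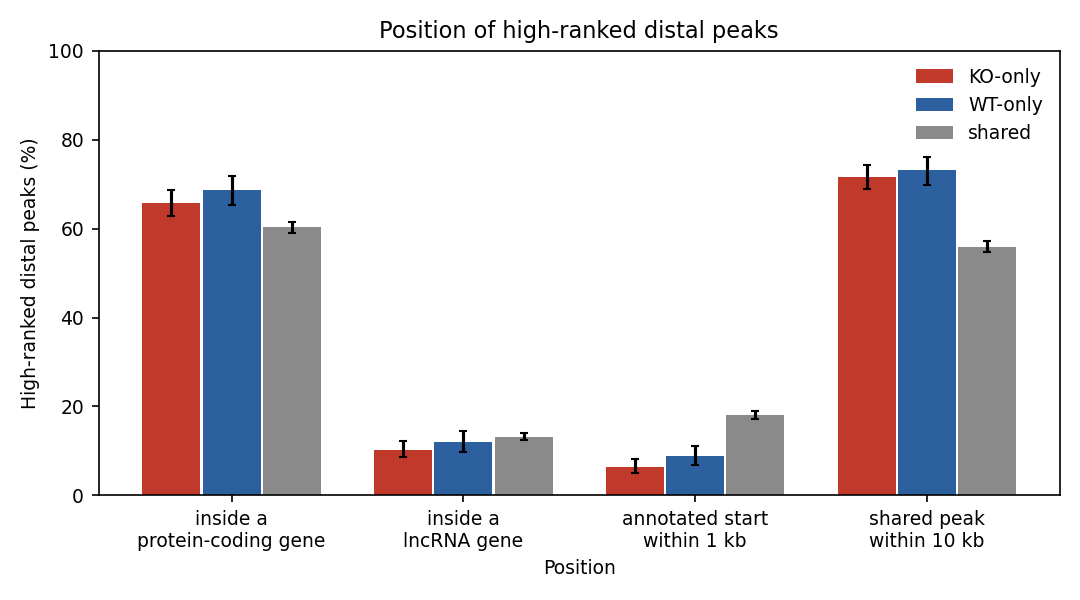
Percent of high-ranked distal peaks (vertical axis) in 4 positions (horizontal axis) for KO-only (red), WT-only (blue) and shared peaks (grey), with exact 95% intervals as bars. KO-only and WT-only bars stand side by side in each position, at 71.7% and 73.1% for a shared peak within 10 kb, where shared peaks stand at 55.9%.

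The opposite case was 74 regions (7.06%) at 59 genes that lay over 50 kb from any shared peak, against 6.59% of shared and 5.23% of WT-only peaks. Myo16, an unconventional myosin gene of 480.8 kb on chromosome 8, had 4 of them within 54.1 kb, at rows 5187, 6999, 7264 and 8429. The nearest shared peak was 390 kb away, and inside the gene lay 7 KO peaks, 1 WT peak, in the last 10% of its list, and 0 shared ones. In Fmnl2, a formin gene of actin filament assembly on chromosome 2, 4 regions stood within 64 kb at rows 11546 to 14493, 128 kb from the nearest shared peak. That gene held 13 KO peaks, 5 WT peaks and 0 shared ones. Over all rows, 11 KO-only and 3 WT-only peaks were assigned to it. A peak within 500 bp of one of the other list, without overlap, counts neither as shared nor as found in 1 list alone. Gas7 on chromosome 11 had 3 regions, 376 kb or more from a shared peak, all in rows 14788 to 15787. Itgam, an integrin gene of myeloid and NK cells, had 1 region at row 7047, 57 kb from a WT peak.

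The regions were spread over 859 genes of the 4621 with a distal KO peak in the first 50% (18.6%). In the WT list, 652 of 4864 genes (13.4%) had a WT-only region. Of the 859 genes, 715 had 1 region, 106 had 2, 31 had 3 and 7 had 4. At 253 of the 859 genes no distal shared peak of the first 50% was assigned. This count was not taken for genes with a WT-only region, so it cannot be set against theirs. Both a KO-only and a WT-only region were present at 169 genes, 19.7% of the genes with the former and 25.9% of those with the latter. Neighbouring regions within 20 kb of each other formed 84 pairs and 19 groups of 3, and 823 regions stood alone.

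The 7 genes with 4 regions were Bhlhe40, Dusp4, Prkch, Itpkb, Lrrc8c, Myo16 and Fmnl2. Bhlhe40, a basic helix-loop-helix factor that controls cytokine production by T cells, had regions 2.11 kb below the gene (row 3161), inside it (row 4482), and 5.31 kb and 38.1 kb above it (rows 13969 and 15863). It had 4 distal shared peaks and 0 WT-only peaks in any row. Dusp4, which dephosphorylates MAP kinases, had regions 46.8 kb and 2.23 kb below the gene (rows 6912 and 8630) and 2 inside it, at chr8:34815355-34815547 and chr8:34816134-34816326 (rows 11498 and 7804). The regions inside Dusp4 lay over 8 kb from any WT peak. Lrrc8c, a subunit of the volume-regulated anion channel, had 1 region within 10 kb of the gene and 3 that lay 10.4 to 41.8 kb from it. Over all rows Dusp4 had 4 KO-only and 0 WT-only peaks, whereas Lrrc8c had 5 of each.

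At the kinase genes Prkch (protein kinase C eta) and Itpkb (inositol trisphosphate 3-kinase B), both lists held such peaks. Prkch had 4 KO-only, 5 WT-only and 9 shared distal peaks, and Itpkb 4, 3 and 7. When the nearest gene end decided instead, Prkch had 2 KO-only regions. In all, 12 genes had at least 2 KO-only and 2 WT-only regions, the others being Ablim1, Cd247, Farp1, Gm52008, Nck2, Sdccag8, Sgms1, Sla, St8sia1 and Vgll4. The 3 regions at Gm52008 (rows 12459 to 15798) lay 728 to 784 kb below Bcl11b, on the side where its distant thymocyte enhancers lie. Genes with 3 regions and 0 WT-only ones included Rin3, a Rab5-binding protein gene (rows 3542, 9679 and 11187), Cd47, the ligand of SIRP alpha, Pla1a, a phospholipase, Sv2c and 2900026A02Rik. Over all rows Pla1a and Sv2c still had 0 WT-only peaks, while Rin3 had 3 and Cd47 and 2900026A02Rik had 2 each. Cd82, Aopep, Extl3, N4bp1 and Nrip1 had 3 KO-only regions and 1 WT-only region each.

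**Figure D3:**
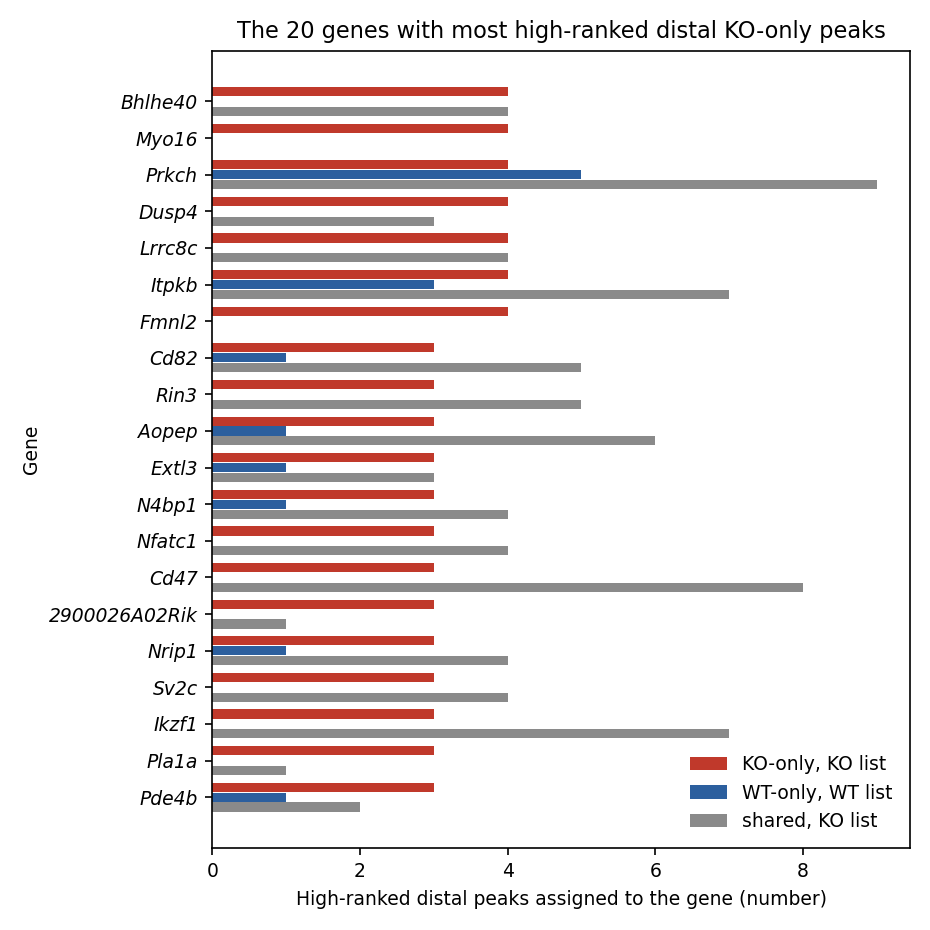
Number of high-ranked distal peaks (horizontal axis) at the 20 genes with most KO-only regions (vertical axis, ties by the earliest row), KO-only in red, WT-only in blue and shared in grey. Prkch is the gene with most peaks of each kind apart from KO-only, at 5 WT-only and 9 shared, and Myo16 and Fmnl2 have 4 KO-only regions and no other bar.

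**Figure D4:**
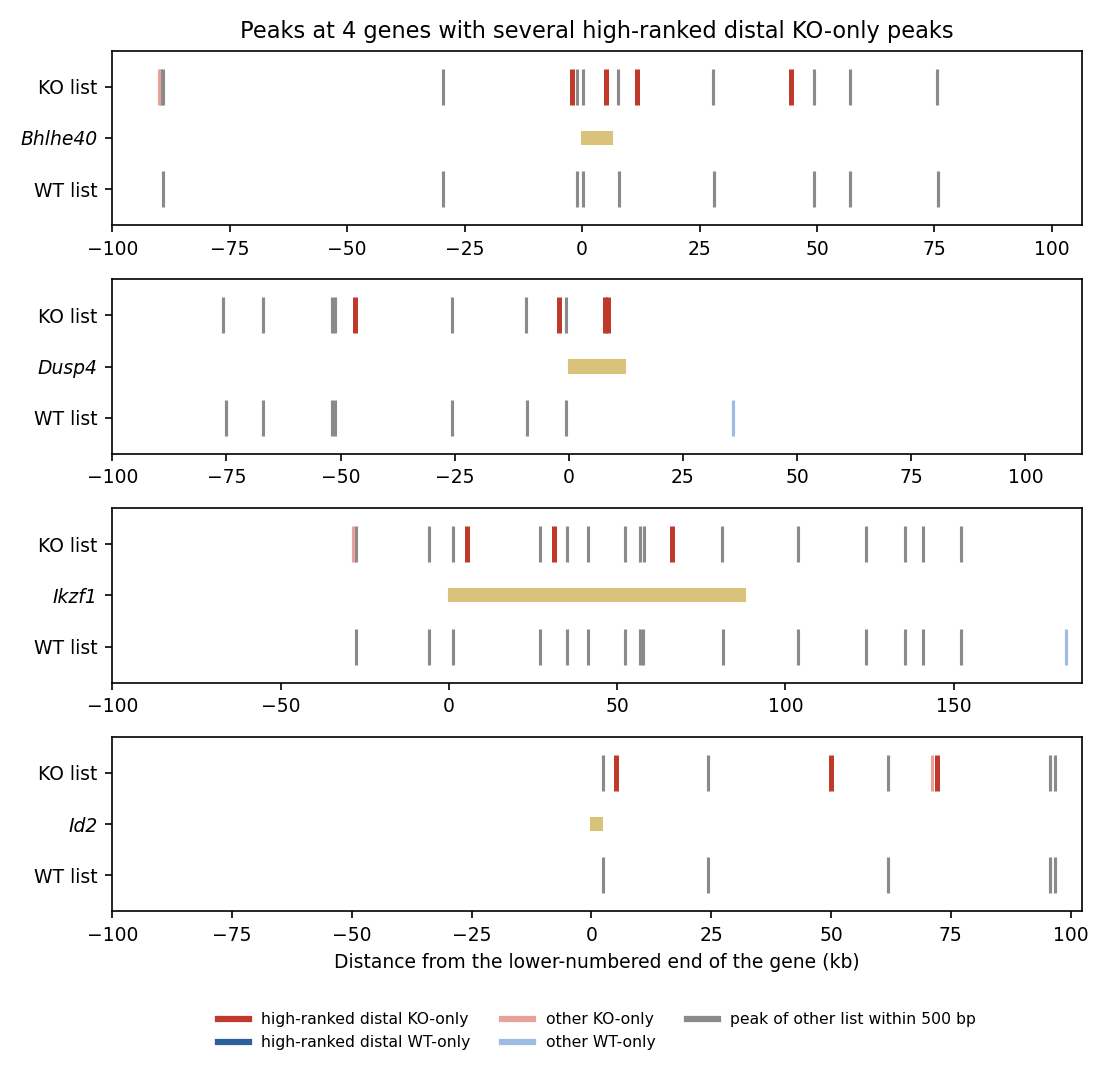
Peaks of the KO list (upper ticks) and the WT list (lower ticks) within 100 kb of Bhlhe40, Dusp4, Ikzf1 and Id2, by distance from the lower-numbered end of the gene in kb (horizontal axis), with the gene as a tan bar. KO-only regions (red) stand among ticks present in both lists (grey) at Bhlhe40, Ikzf1 and Id2, for Id2 at 5.05, 49.96 and 72.1 kb. At Dusp4 those at 7.84 and 8.62 kb lie above the last grey tick, and the only tick beyond them is a WT-only one at 35.9 kb, which was given to another gene.

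Bcl11b itself had 0 KO-only and 2 WT-only regions, and 3 distal shared peaks. Once every row and the gene ends were included, each list held 3 peaks at Bcl11b found in that list alone. The deleted part of the gene is not given, so these do not check the genotype. As a check of the labelled cell type, Foxp3 had 1 distal peak in each list, which was shared, and Ctla4 7 shared, 0 KO-only and 1 WT-only. By the count over every row and the gene ends, Ctla4 stood at 2 peaks of the KO list alone and 2 of the WT list alone. The 30 Treg signature genes had 78 distal KO and 86 distal WT peaks in the first 50%. B cell genes had 2 and 5, erythroid and megakaryocyte genes 1 and 3, non-lymphoid genes 3 and 3, and myeloid genes 10 and 7. The 25 cytotoxic, NK and innate lymphoid genes had 45 and 31, and the 8 CD8 T cell genes 18 and 9. The lists differ in their number of genes, and the purity of the sorted cells was not tested.

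KO-only regions are described below over lists of genes by role, as a share of the distal KO peaks of the first 50% at those genes, to be read against 11.7% over all genes, and WT-only regions against 8.09%. Since the rule chose regions by this contrast, the shares are descriptions. Over the gene lists, the median over genes of KO-only minus WT-only regions was 0 over all genes and in all lists but those of chemokines and cytokines (1), CD8 T cells (0.5) and erythroid and megakaryocyte genes (-0.5).

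Among signalling genes of the T cell receptor, 11 of 28 had a KO-only region and 10 a WT-only region. The regions numbered 16 of 87 distal KO peaks (18.4%, 10.9 to 28.1%) and 15 of 94 distal WT peaks (16.0%, 9.22 to 25%), with more KO-only regions at 7 genes and more WT-only regions at 7. Nfatc1, a calcium-driven transcription factor, had 3 KO-only regions inside the gene (rows 6893, 9262 and 11606) and 0 WT-only ones. Cd247 had 2 of each kind, and by the nearest gene end its KO-only regions belong to other genes. The kinase gene Fyn had 2 inside the gene, 102.6 and 117.4 kb from its start, against 0. With all rows and gene ends counted, KO-only against WT-only peaks numbered 5 and 4 at Nfatc1, and 3 and 4 at Fyn.

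Of the 20 lineage transcription factors of T cells, 10 had a KO-only region, 15 of 88 distal KO peaks (17.0%, 9.87 to 26.6%), against 13 of 83 in the WT list (15.7%). Ikzf1 had 3, at chr11:11690196-11690388, 11716098-11716290 and 11751219-11751411, with 7 shared distal peaks and 0 WT-only peaks in any row. Ikzf3, encoding Aiolos, had 2 inside the gene (rows 14908 and 17857) against 0. Runx1 had 2, 36.6 and 54.8 kb before the gene, and Runx3, a factor of cytotoxic and Th1 cells, 2 that lay 43.8 and 50.6 kb before it, both against 0 WT-only. None of these 4 lay within 10 kb of its gene. With all rows and gene ends counted, KO-only against WT-only peaks numbered 5 and 5 at Runx1, 5 and 2 at Runx3, and 3 and 2 at Ikzf3. Ets1 had 1 KO-only and 3 WT-only regions, and Gata3 and Satb1 had 1 of each.

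Treg signature genes had 17 KO-only regions among 78 distal KO peaks (21.8%, 13.2 to 32.6%) and 12 WT-only among 86 (14.0%, 7.42 to 23.1%), with 11 and 9 of 30 genes involved. Dusp4 gave 4 of the 17. Ikzf2, encoding Helios, gave 3 within 26.2 kb around its upper end (rows 10411, 13124 and 17929) against 1 WT-only. Nrp1, a surface receptor of thymus-derived Treg cells, gave 2 against 0, at 1.21 kb and 19.2 kb outside the gene, and over all rows 4 KO-only against 1 WT-only peak. Il2ra, which encodes CD25, had 1 KO-only region 8.89 kb inside the gene and 2 WT-only ones. Il10 had 1 region 1.01 kb outside the gene against 0, and Tigit 1 against 3. Within 10 kb of their genes, 11 of the 17 regions remained. Effector Treg and homing genes had 8 of 32 (25%, 11.5 to 43.4%) against 6 of 37 (16.2%), among them 2 at Rora, an orphan nuclear receptor, and 1 each at Klrg1, Ccr4, Selplg and Batf.

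The cytotoxic, NK and innate lymphoid genes had the highest KO-only share of the 24 lists, 12 of 45 (26.7%, 14.6 to 41.9%), against 2 of 31 in the WT list (6.45%, 0.791 to 21.4%). The intervals of both peak lists overlapped. The 12 regions lay at 8 of 25 genes, and 7 genes had more KO-only than WT-only regions and 0 genes fewer. Id2, which is required for NK and innate lymphoid cells, had 3 regions on its start side, 2.76, 47.7 and 69.8 kb before the gene (rows 12367, 16677 and 18022), and 0 WT-only peaks in any row. Nfil3, a factor acting early in innate lymphoid development, had 2 against 1, both in the lncRNA gene Gm33424, 17.8 and 18.8 kb outside Nfil3. The alpha 1 integrin gene Itga1, a marker of tissue-resident cells, had 2 against 0, 1 inside the gene and 1 that lay 69.9 kb outside it. Gaps of 24.1 and 58.8 kb separated these 2 regions from WT peaks. Fcer1g, a signalling adaptor of innate receptors, had 1 inside the gene at row 7031, its only distal peak in the first 50% of either list. Within 10 kb of their genes, 7 of the 12 remained. The cells were sorted as CD4+YFP+, and the part of other cells in these counts was not tested. B cell, erythroid and non-lymphoid lists had 0 KO-only regions among 2, 1 and 3 distal KO peaks, too few for a share, and myeloid genes had 1 of 10, at Itgam.

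**Figure D5:**
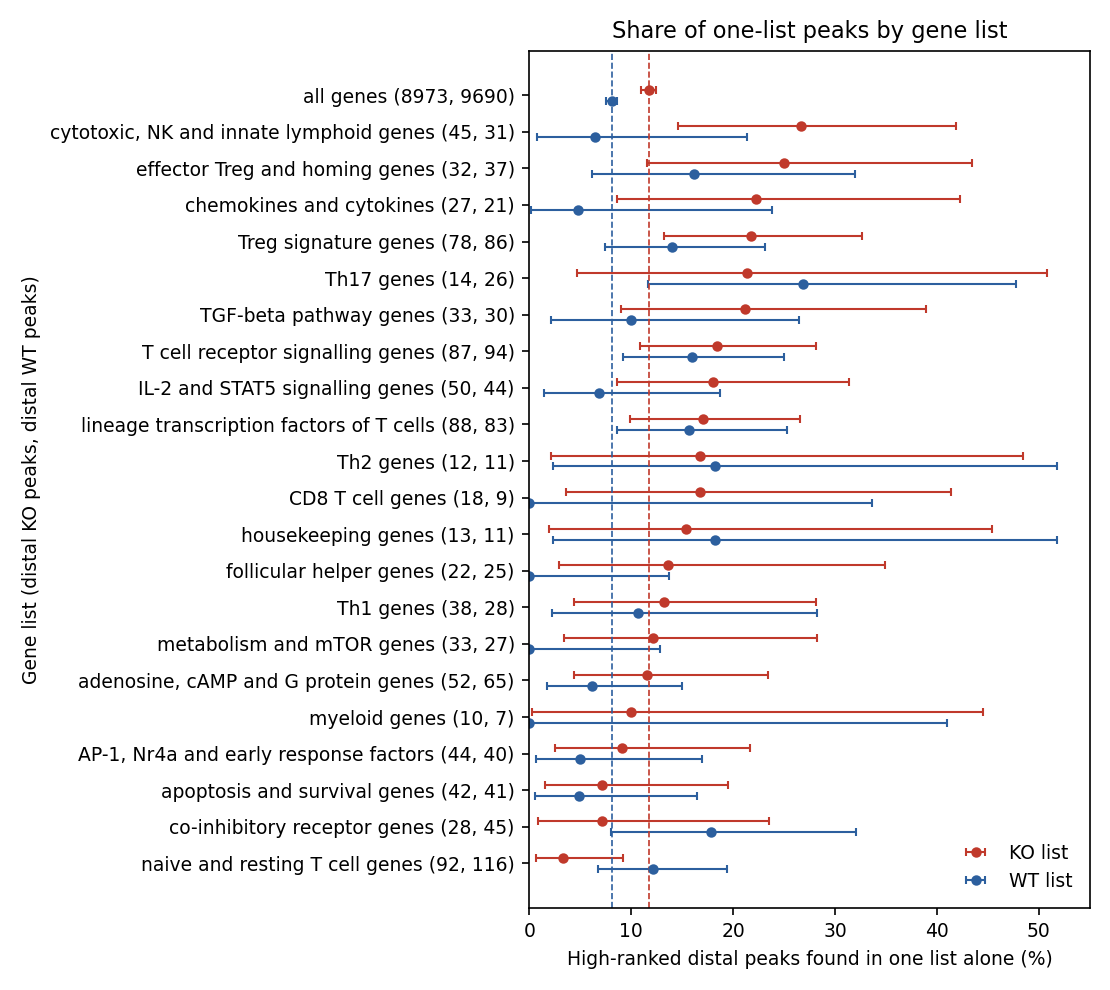
Percent of high-ranked distal peaks found in one list alone (horizontal axis) for the gene lists with a KO-only region and all genes (vertical axis, numbers of distal KO and WT peaks in brackets), KO list in red and WT list in blue, with exact 95% intervals. Dashed lines mark all genes, at 11.7% and 8.09%. The KO point of the cytotoxic, NK and innate lymphoid list stands at 26.7% and that of the naive and resting list at 3.26%.

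Naive and resting T cell genes stood at the other end. They had 3 KO-only regions among 92 distal KO peaks (3.26%, 0.678 to 9.23%) and 14 WT-only among 116 distal WT peaks (12.1%, 6.76 to 19.4%), with overlapping intervals. Ets1 and Satb1 had 1 each, and both genes had at least 1 WT-only region as well. Of 18 genes, 0 had more KO-only and 7 had more WT-only regions. The distal KO peaks of these genes also stood earlier in the list, at a median place of 25% of the rows against 30.8% over all genes. The median place was 33.0% for the cytotoxic list and 27.7% for the Treg signature list. KO-only peaks are rarer in early rows, and whether place bears on the shares of these lists was not tested.

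Among cytokine signalling genes, the order of the KO-only and WT-only shares differed between lists, and their intervals overlapped. IL-2 and STAT5 signalling genes had 9 of 50 (18.0%, 8.58 to 31.4%) against 3 of 44 (6.82%). The feedback inhibitor gene Socs1 had 2 regions, 8.93 and 14.8 kb outside the gene, against 0, and the kinase gene Pim1 2 against 0, 5.03 and 50.7 kb away. Another region, in a stretch of 20.4 kb with the 2 at Socs1, was given to Clec16a. Socs2 had 1 of each kind, and Myc 1 against 0, 42.1 kb away. Chemokine and cytokine genes had 6 of 27 (22.2%, 8.62 to 42.3%) against 1 of 21 (4.76%, 0.12 to 23.8%), at 6 of 18 genes, among them Ccl5, Xcl1, Il10 and Il16 with 1 each. Th1 genes had 5 of 38 (13.2%) against 3 of 28 (10.7%), with Runx3 and the receptor genes Il12rb2, Il18r1 and Ifngr2. Th2 genes had 2 of 12 against 2 of 11, at Gata3 and Ccr4, and Th17 genes 3 of 14 (21.4%) against 7 of 26 (26.9%).

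In the TGF-beta pathway, which sustains Foxp3 in peripheral Treg cells, 7 of 33 distal KO peaks were KO-only (21.2%, 8.98 to 38.9%), against 3 of 30 (10%). Smad3, a receptor-activated signal transducer, had 3 inside the gene within 16.7 kb (rows 9535, 11999 and 15225) and 1 WT-only region. Its corepressor gene Ski had 2 against 0, and Smad2 and the inhibitory Smad7 had 1 each against 0, though over all rows Smad2 had 1 KO-only and 2 WT-only peaks. Adenosine, cAMP and G protein genes had 6 of 52 (11.5%), at the level of all genes, with 3 at the phosphodiesterase gene Pde4b and 1 each at Rgs1, Rgs3 and Gnas.

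Follicular helper genes had 3 of 22 (13.6%) against 0 of 25, at Pdcd1, Icos and Tox2, and co-inhibitory receptor genes 2 of 28 (7.14%, 0.877 to 23.5%) against 8 of 45 (17.8%, 8 to 32.1%), at Pdcd1 and Tigit. AP-1, Nr4a and early response factors had 4 of 44 (9.09%) against 2 of 40 (5%), at Jun (row 3989, 1.08 kb from the gene), Fos, Batf and Mafk. Metabolism and mTOR genes had 4 of 33 (12.1%) against 0 of 27, with the glucose transporter genes Slc2a1 and Slc2a3, the hexokinase gene Hk2 and Myc. Apoptosis and survival genes had 3 of 42 (7.14%) against 2 of 41, at Mcl1, Bcl2l11 and Cflar. CD8 T cell genes had 3 of 18 against 0 of 9, at Runx3 and Xcl1, and housekeeping genes 2 of 13 against 2 of 11, at Actb and Ywhaz. For these small lists the intervals of both peak lists overlapped. The regions at Icos and Xcl1 lay 54.2 and 21.8 kb from their genes. With all rows and gene ends counted, KO-only against WT-only peaks numbered 3 and 4 at Icos and 1 and 6 at Xcl1. Pdcd1 and Tox2 had 1 and 1 each by this count.

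Groups of 3 regions within reach of each other showed where KO-only sites stood side by side. Those at Cd82, Bhlhe40, Rin3, Dusp4, Extl3, Pla1a and Smad3 spanned 8.53 to 17.8 kb with 0 WT-only peaks between them. A group at Cd69 and Clec2d, a pair of C-type lectin genes of the NK gene complex, spanned 16.9 kb (rows 4762, 11243 and 14405) and had 2 WT-only peaks within. At Txk 3 regions spanned 13.9 kb (rows 9398, 10822 and 17324) with 0 shared and 1 WT-only peak within. At Scrg1 the group lay 38.9 to 53.5 kb from the gene with 0 shared and 0 WT-only peaks within. At Prkch 3 regions spanned 35.7 kb together with 3 shared and 3 WT-only peaks.

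Across chromosomes, the KO-only share of distal KO peaks lay between 7.37% (chromosome 3) and 15.1% (chromosome 8) on the autosomes, 11.8% in all (11.2 to 12.5%). On chromosome 3 the WT-only share was higher, 11.6%, and on chromosome 8 it was 5.63%. Chromosome X had 3 KO-only regions among 131 distal KO peaks (2.29%, 0.475 to 6.55%), at Otud5, Fam120c and Tmsb4x, and 11 WT-only among 170 distal WT peaks (6.47%, 3.27 to 11.3%). Its interval lay below that of the autosomes in the KO list. The sex of the animals is not given in the labels.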

How the data were processed

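ATAC-seq peaks of 3 WT and 3 KO samples were analysed. The submitters' processing notes name HISAT2 2.1.0, HOMER 4.10.1, SAMtools 1.3, deepTools, Trim Galore 0.4.2 and FastQC, and build mm10, without saying which step used which. How peaks were called, whether reads were shifted for transposase insertion and how replicates were joined is not given in the sources used. The labels name the same peak file for all samples of a group. The score that the authors deposited is 1 in every row of both files, so it carries no height, and depth is unknown.

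The positions, gaps and counts were computed in Python 3.11.15 (pandas 2.3.3, numpy 2.4.6), intervals with scipy 1.17.1 and plots with matplotlib 3.10.9. The distance code was tested on 2000 simulated peaks against bedtools 2.31.1 and gave 0 differences. Genes came from a RefSeq table of GRCm38.p6, the assembly behind mm10, with 21887 protein-coding genes. Strand was known only for genes with a start window, and windows were not used for chromosome 18. Shares carry exact intervals, and with 1 list per group no test or p-value is given.

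The regions and the 24 gene lists (348 genes, all found in the table, some in several lists) were chosen with earlier results of these data known. Genes named are Bcl11b, Foxp3, Il2ra, Ctla4, Ikzf2 and Il10, the 20 with most regions, those of the 20 earliest rows, up to 4 per list, and those with at least 2 KO-only and 2 WT-only regions. Shisa5, Gm32999, Txk, Vmp1, Trac, Gas7, Clec16a, Cd69, Clec2d, Scrg1, Otud5, Fam120c and Tmsb4x lie outside this rule and were picked once their values were known. The planned G+C content and 17 motifs over all regions were not computed, since no genome was used, and motifs were searched in start windows alone. Some genes that the rule names are not reported here. Alternatives changed the distance, the row limit, the gene-end and reach limits, the chromosomes and the assignment to genes.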

Additional observations from a re-analysis of the deposited data

How the results depend on the processing

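No paired analysis was possible because each group has 1 pooled peak list without replicate values, and for the same reason no sample could be left out. Of 115 alternative values of the main counts and shares and of the lists, 88 stayed within the limits set for them (1.5 times for counts of peaks or genes, the 95% interval for shares). Against 1048 regions, 38 genes with 3 or more of them, 65.7% inside genes, 71.7% near a shared peak and a KO to WT ratio of 1.34, the following moved. Requiring only no overlap gave 65 such genes, and a gap of 1000 bp 67.8% near a shared peak. A gap of 5000 bp gave 348 regions, 4 genes, 35.6% near a shared peak, which the gap itself lowers, and a ratio of 1.48. The first 25% of the rows gave 201 regions, 2 genes and a ratio of 2.68. The first 75% gave 2508 regions, 150 genes, 62.5% inside genes, 60.2% near a shared peak and a ratio of 0.866, so the order of the lists reversed. The cause was not tested. A distance of 5 kb from gene ends gave 24 genes and 66.4% near a shared peak, and a reach of 50 kb 68.7% inside genes. Only the first 75% of the other list as reference gave 66.4% near a shared peak and a ratio of 1.12. With regions counted inside or within 10 kb of a gene, the Treg signature list had 11 regions, the cytotoxic list 7, the Th1 list 3, the co-inhibitory list 1, the IL-2 list 4, the CD8 list 0, the myeloid list 0 and the housekeeping list 1, since distant regions drop out. For named genes, 176 values stayed the same and 30 moved. Leaving out or adding the whole run of rows at the limit, chosen after seeing the data, gave 1046 and 1059 regions.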

Other observations

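Further genes with 3 KO-only regions, picked once their values were known, were Nsmce2, Mbd2, Dhrs3, Tnfaip8, Gm38664, Igf2r, Maml2, Gm46963, Septin9 and Acot7. Those at Dhrs3, Tnfaip8, Gm38664 and Acot7 formed groups within 20 kb of each other, spanning 11.0, 8.76, 5.84 and 16.6 kb, and the group at Gm38664 had 1 WT-only peak and 0 shared peaks within. Pairs of regions over 50 kb from any shared peak lay, among others, at Tmem171, Mier1, Tpcn2, Arl15, Prr5 and Nxpe4. The pair at Tmem171 was the earliest of these, from row 3336, and stood 121.8 kb from the nearest shared peak. At Klri2, an NK receptor gene, 1 region at row 3995 stood 67.2 kb from one.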
